A study of Gallus gallus with 8 samples.

Results

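The LIM homeodomain and LIM-only (LMO) genes were followed in sorted cells of the developing ear and of the neighbouring epibranchial placodes of chick embryos. The genes were chosen by name, as LMX1A, LMX1B, ISL1, ISL2, LHX2, LHX5, LHX9, LMO1, LMO3 and LMO4. The count table lists 9 of these 10 names among its 24356 genes, and LHX2 was not analysed here. Of the 9 genes, 8 passed the filter on low counts and LHX5 did not. They were compared between 4 libraries of Lmx1aE1-EGFP+ cells, labelled as otic placode, and 4 libraries of Sox3U3-EGFP+ cells, labelled as epibranchial placode. Both groups came from fertilized hens' eggs that had been electroporated in ovo at somite stage (ss) 3 to 5 with a reporter plasmid, in which an enhancer drives EGFP from the pTK vector. The series' design text gives ss3 to 6. Embryos were collected at ss18 to 21. The study's methods name whole heads as the tissue dissociated and its results text the dissected ear region, so that which other head cells could enter the sort is not settled. For each library, 2000 EGFP+ cells were sorted. No group was left unelectroporated, and the number of embryos behind a library is not given in the sources used here. The study's methods call the replicates biological, without stating which embryos each was drawn from. If a group's libraries did not come from separate embryos, the p-values measure technical spread only.

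LIM homeodomain proteins are transcription factors with a pair of zinc-binding LIM domains in front of a DNA-binding homeodomain. The LIM domains bind the LDB adaptor proteins, which dimerize and bring LIM homeodomain proteins together on DNA. LMO proteins consist of LIM domains without a homeodomain. They bind LDB proteins too, so that they can compete with LIM homeodomain proteins or build complexes with other DNA-binding proteins. SSBP proteins stabilize LDB1, and RLIM is a ubiquitin ligase that marks LDB proteins for removal. In the head, LMX1A marks the otic vesicle and the roof plate, and ISL1 marks cranial sensory and motor neurons, heart progenitors and pharyngeal endoderm.

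The libraries held between 6559872 and 45183366 counts, and each group had 2 libraries above and 2 below 15000000 counts. In no pair of the 8 libraries did the counts agree within sampling noise (lowest chi-square per degree of freedom 3.94 over 28 pairs). All levels below are CPM, counts relative to the library total, scaled by TMM factors that correct for differences in composition. They depend on transcript length, so that levels were compared between groups and not between genes. As a check of the labels, the summed level of 7 otic markers was 860 to 1136 CPM in the Lmx1aE1-EGFP libraries and 295 to 361 CPM in the Sox3U3-EGFP libraries. The sum is mostly SOX10, and PAX2, a gene of both placodes, was higher in Sox3U3-EGFP+ cells (mean of 85.6 against 34.5 CPM). Of the epibranchial list 5 markers were in the table. They summed to 30.3 to 40.8 CPM in the Lmx1aE1-EGFP libraries and 155 to 188 CPM in the Sox3U3-EGFP libraries. The latter sum is mostly UPK1B and NELL1 (means of 80.4 and 56.2 CPM). SOX3 is also on this list, and the Sox3U3 reporter is named for an enhancer of that gene. Its level is therefore tied to how the cells were collected.

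LMX1A and LMO4 were higher in Lmx1aE1-EGFP+ cells, and ISL1 and ISL2 were higher in Sox3U3-EGFP+ cells. LMX1B was also higher in Lmx1aE1-EGFP+ cells, by a smaller amount, and its adjusted p was above 0.05 when most single libraries were left out. LHX9, LMO1 and LMO3 did not pass the test. At an adjusted p under 0.05, LMX1A, LMX1B and LMO4 were called on the otic side (3 of the 8 tested genes, against 12.1% of all 16861 tested genes), and ISL1 and ISL2 on the epibranchial side (2 of 8, against 11.3%). In either direction 23.3% of all tested genes were called. With the study's further requirement of an absolute log2 fold change over 1.5, LMO4 kept its call on the otic side (1 of 8, against 0.712% of all tested genes), as did ISL1 and ISL2 on the epibranchial side (2 of 8, against 2.47%). The share called in either direction was then 3.18%. For 4 of the 8 genes, LMX1A, ISL1, ISL2 and LMO4, no library of one group lay within the range of the other, which held for 26.0% of all tested genes. The genes were chosen with results of these data known, and their counts are therefore a description. Across the 8 genes the median log2 fold change (Lmx1aE1-EGFP over Sox3U3-EGFP) was 0.41, against -0.04 over all tested genes.

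**Figure D1:**
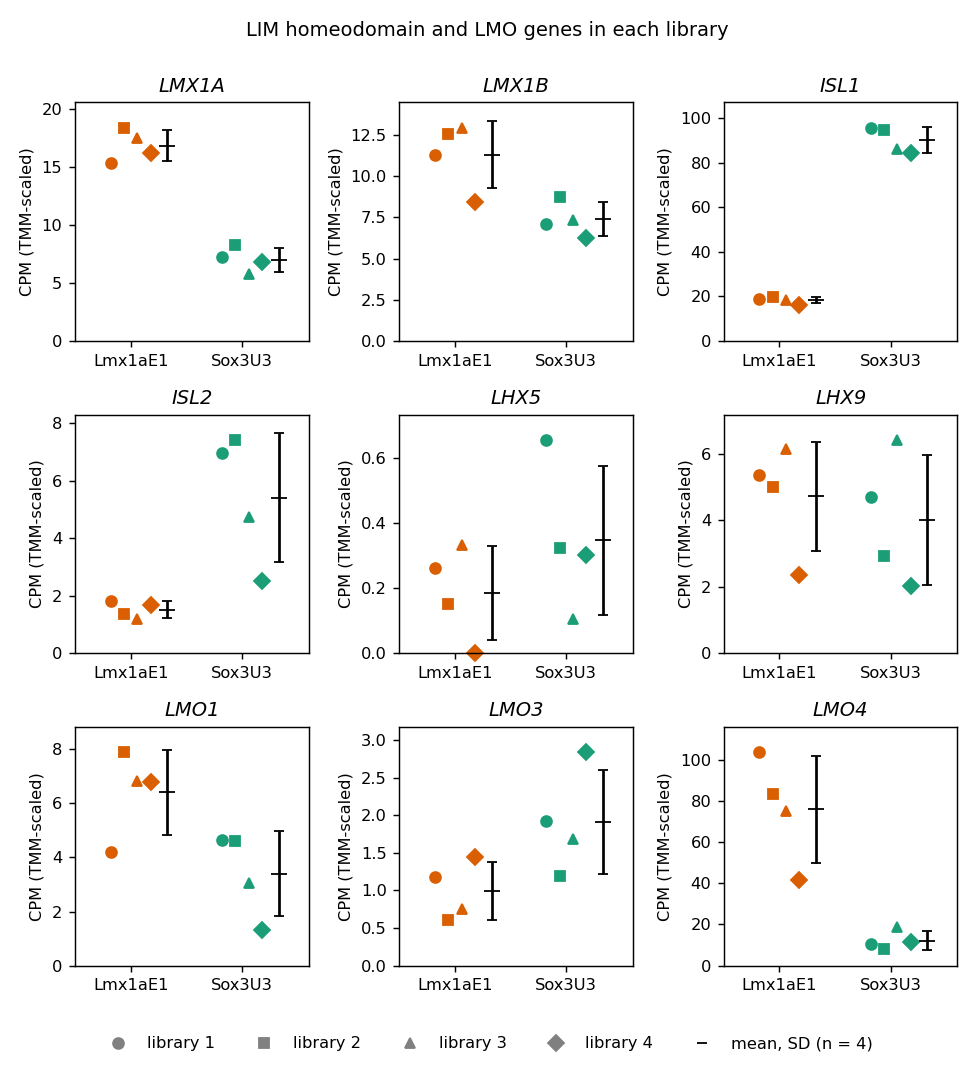
TMM-scaled CPM of the 9 genes in each of the 8 libraries, 1 panel per gene, with the linear axis starting at 0. Marker shapes give the library number, and the black bars give the mean and SD over the 4 libraries of a group. ISL1 sits between 16.4 and 19.9 CPM in the Lmx1aE1-EGFP libraries and between 84.2 and 95.6 CPM in the Sox3U3-EGFP libraries, whereas LMO4 spreads from 41.4 to 103 CPM within the Lmx1aE1-EGFP group.

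LMX1A (ENSGALG00000003424), which in mouse is required for normal patterning of the inner ear, had 15.3, 18.3, 17.4 and 16.2 CPM in Lmx1aE1-EGFP libraries 1 to 4. Its levels in Sox3U3-EGFP libraries 1 to 4 were 7.22, 8.27, 5.78 and 6.78 CPM. Every Lmx1aE1-EGFP library was thus above every Sox3U3-EGFP library. The group means were 16.8 ± 1.34 and 7.01 ± 1.03 CPM (SD, n = 4 each), a 2.38-fold difference. The log2 fold change was 1.25 (standard error, SE, 0.19, 95% interval 0.86 to 1.64, adjusted p = 0.000143, edgeR). The reporter of this group carries an enhancer of the LMX1A locus, so that the level of LMX1A is tied to how the cells were collected. The coefficient of variation of LMX1A within the Lmx1aE1-EGFP group was 7.95%, close to the 7.43% that counting error alone would give at these depths. The call held in the deeper libraries alone (log2 fold change 1.15, adjusted p = 0.00352) and in the shallower ones (1.42, adjusted p = 0.0124).

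LMX1B (ENSGALG00000040582), the paralogue of LMX1A and known for its roles in the dorsal limb and at the midbrain-hindbrain boundary, differed less. Its levels were 11.3, 12.6, 12.9 and 8.45 CPM in Lmx1aE1-EGFP libraries 1 to 4. In Sox3U3-EGFP libraries 1 to 4 they were 7.11, 8.75, 7.35 and 6.27 CPM. The groups overlapped, since Lmx1aE1-EGFP library 4 lay below Sox3U3-EGFP library 2. The log2 fold change was 0.61 (SE 0.21, 95% interval 0.16 to 1.05, adjusted p = 0.0462, edgeR), and a two-sided exact permutation test gave p = 0.0571. With a library left out the log2 fold change was 0.52 to 0.73. The adjusted p was between 0.0715 and 0.148 without Lmx1aE1-EGFP library 1, 2 or 3 or Sox3U3-EGFP library 1, 3 or 4, and stayed under 0.05 only without Lmx1aE1-EGFP library 4 or Sox3U3-EGFP library 2. Within the deeper and the shallower libraries the log2 fold changes were 0.46 and 0.81 (adjusted p = 0.331 and 0.107).

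ISL1 (ENSGALG00000014884), a factor of sensory and motor neurons and of heart progenitors, showed the opposite direction. It had 19.0, 19.9, 18.4 and 16.4 CPM in Lmx1aE1-EGFP libraries 1 to 4. In Sox3U3-EGFP libraries 1 to 4 it had 95.6, 94.6, 86.1 and 84.2 CPM. The 8 libraries formed a low and a high set, and the coefficient of variation within a group was at most 7.96%. The log2 fold change was -2.30 (SE 0.12, 95% interval -2.56 to -2.04, adjusted p = 5.26e-09, edgeR). It remained between -2.43 and -2.13 under every alternative tried, the fits to the deeper or the shallower libraries alone included.

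Because ISL1 is also made by heart progenitors, pharyngeal endoderm and motor neurons, markers of these cells were set beside it. In bulk samples, fewer cells of a type and less RNA per cell cannot be told apart. All 8 heart and second heart field markers were detected, with sums of 270 to 313 CPM in the Lmx1aE1-EGFP and 158 to 270 CPM in the Sox3U3-EGFP libraries. MYL4 made up most of the former sum and was higher in Lmx1aE1-EGFP+ cells (log2 fold change 1.66). In contrast, NKX2-5, TNNT2 and FGF10 of the list were higher in Sox3U3-EGFP+ cells. At an adjusted p under 0.05, 1 of the 8 was called on the otic side and 3 on the epibranchial side, beside 12.1% and 11.3% of all tested genes. ACTC1, a muscle actin, varied from 4.94 to 79.6 CPM among the Sox3U3-EGFP libraries. The 7 pharyngeal endoderm markers summed to 13.5 to 18.2 CPM in the Lmx1aE1-EGFP and 35.0 to 68.7 CPM in the Sox3U3-EGFP libraries. SHH was at 22.3 CPM in Sox3U3-EGFP library 1 and at most 2.0 CPM in the other libraries of that group. NKX2-6 was higher in Sox3U3-EGFP+ cells, as ISL1 was, at a mean of 1.13 against 21.1 CPM, and so was NKX2-5, at 0.83 against 6.16 CPM. At an adjusted p under 0.05, 2 of the 6 tested endoderm markers were called on the epibranchial side and 0 on the otic side. The shares of all tested genes were 11.3% and 12.1%. The 2 were NKX2-6 and FOXA2. SHH, FOXA1 and PAX1 had log2 fold changes of -2.74, -1.02 and -0.72 without passing, and PAX9 was at 4.12 against 3.80 CPM. The part of heart and endoderm cells in the ISL1 difference was not tested. The 5 motor neuron markers summed to at most 7.04 CPM in any library, and MNX1 was at or below 0.304 CPM in all 8.

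ISL2 (ENSGALG00000033391), which acts beside ISL1 in motor and sensory neurons, followed ISL1 at a lower depth of reads. It had 14, 9, 29 and 37 counts in Lmx1aE1-EGFP libraries 1 to 4, which are 1.83, 1.36, 1.20 and 1.67 CPM. In Sox3U3-EGFP libraries 1 to 4 it had 319, 137, 45 and 25 counts, or 6.96, 7.404, 4.73 and 2.53 CPM. The groups did not overlap, and the Sox3U3-EGFP group was far more spread for ISL2 (coefficient of variation 41.6%, where counting error would give 10.6%) than for ISL1 (6.43%). The log2 fold change was -1.86 (SE 0.36, 95% interval -2.62 to -1.11, adjusted p = 0.00120, edgeR). It was -2.29 within the deeper libraries (adjusted p = 0.000575) but -1.16 within the shallower libraries, where it did not pass the test (adjusted p = 0.185). Markers of differentiated neurons were set beside ISL1 and ISL2. The 5 genes summed to 499 to 639 CPM in the Lmx1aE1-EGFP and 465 to 553 CPM in the Sox3U3-EGFP libraries, most of it TUBB3. None of the 4 tested markers passed at an adjusted p under 0.05, beside 23.3% of all tested genes in either direction. The part of neurons in the ISL1 and ISL2 differences was not tested.

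Of the remaining LIM homeodomain genes, LHX9, known in the gonad, the limb and the brain, did not differ detectably between the groups. Its levels ran from 2.35 to 6.15 CPM in the Lmx1aE1-EGFP libraries and from 2.02 to 6.41 CPM in the Sox3U3-EGFP libraries. The ranges nearly coincided, and the 95% interval of the log2 fold change of 0.22 was -0.56 to 0.99 (adjusted p = 0.710, edgeR), which leaves room for differences of such sizes. LHX5, a gene of the forebrain, had 0 to 8 counts in the Lmx1aE1-EGFP libraries and 1 to 30 counts in the Sox3U3-EGFP libraries. This is at most 0.65 CPM, and LHX5 was not tested with edgeR for this reason.

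**Figure D2:**
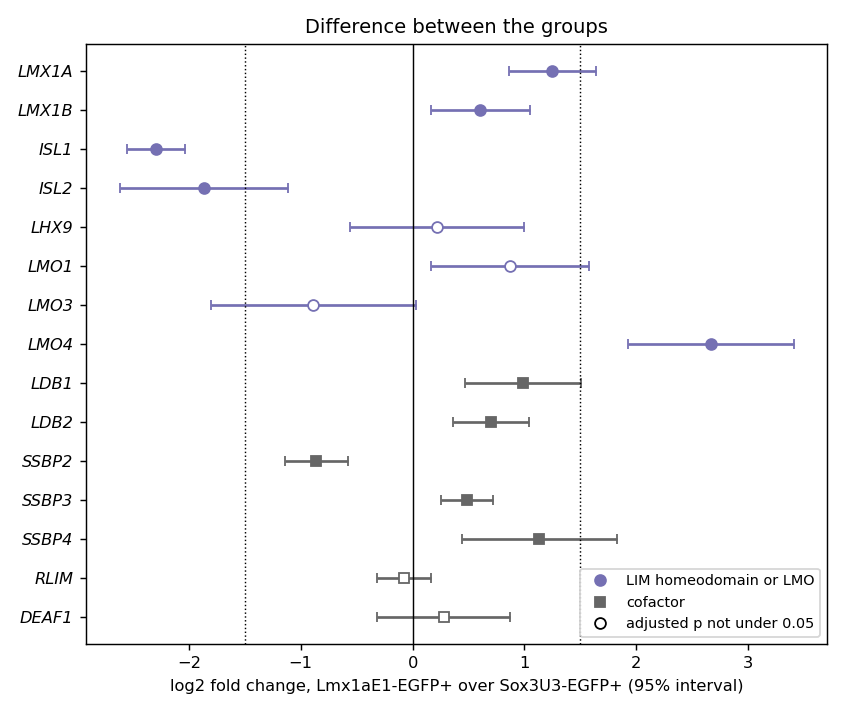
Log2 fold change (Lmx1aE1-EGFP+ over Sox3U3-EGFP+ cells) with its 95% interval for the 8 tested LIM homeodomain and LMO genes (circles) and 7 cofactor genes (squares). Open symbols did not reach an adjusted p under 0.05 and dotted lines mark log2 fold changes of -1.5 and 1.5. LMO4 at 2.67 and ISL1 at -2.30 have intervals wholly beyond the dotted lines.

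Among the LMO genes, LMO4 (ENSGALG00000006252) stood out on the otic side. LMO4 is a widely expressed LIM-only cofactor, needed in mouse for the formation of the semicircular canals. It had 103, 83.3, 75.1 and 41.4 CPM in Lmx1aE1-EGFP libraries 1 to 4. In Sox3U3-EGFP libraries 1 to 4 it had 10.4, 8.11, 18.6 and 11.3 CPM. The groups did not overlap, but library 4 of the Lmx1aE1-EGFP group lay well below the other 3, and library 3 of the Sox3U3-EGFP group was above its fellows. The log2 fold change was 2.67 (SE 0.33, 95% interval 1.92 to 3.41, adjusted p = 0.000432, edgeR), a 6.34-fold difference. The coefficient of variation was 34.1% in the Lmx1aE1-EGFP group, where counting error would give 3.68%. Both shallower libraries were above both deeper libraries in each group, and the part of depth in this spread was not tested. It was 2.66 in the deeper libraries alone, 2.65 in the shallower ones, and 2.49 to 2.94 with any library left out.

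LMO4 is also expressed by neural crest cells, whose markers were set beside it. Of the 8 markers listed 7 were in the table, all detected in every library, and they summed to 595 to 698 CPM in the Lmx1aE1-EGFP and 131 to 197 CPM in the Sox3U3-EGFP libraries. At an adjusted p under 0.05, 6 of the 7 were higher in Lmx1aE1-EGFP+ cells, beside 12.1% of all tested genes. MSX1, the marker that did not pass, had 61.9, 84.4, 174 and 190 CPM in Lmx1aE1-EGFP libraries 1 to 4. Without it, in a sum added after seeing the data, the other 6 markers came to 567, 511, 511 and 509 CPM in these libraries. FOXD3, a defining crest factor, had 59.6 to 68.2 CPM in the Lmx1aE1-EGFP libraries. EDNRB, the endothelin receptor of crest cells, had 20.2, 18.9, 15.3 and 9.98 CPM in Lmx1aE1-EGFP libraries 1 to 4 and was, like LMO4, lowest in library 4. Of 7 mesenchyme markers, all detected in every library, 4 were called on the otic side and 0 on the epibranchial side at an adjusted p under 0.05. The shares of all tested genes were 12.1% and 11.3%. These markers summed to 777 to 870 CPM against 571 to 1000.2 CPM, most of it COL1A2. TWIST1, a mesenchyme and crest factor, had 47.7, 50.9, 27.0 and 19.9 CPM in Lmx1aE1-EGFP libraries 1 to 4 and, like LMO4, was lowest in library 4. The part of crest or mesenchyme cells in the LMO4 difference was not tested.

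LMO1 and LMO3, close relatives of each other that are both known as oncogenes in human neuroblastoma, lay in opposite directions without passing the test. LMO1 had 4.19, 7.88, 6.81 and 6.78 CPM in Lmx1aE1-EGFP libraries 1 to 4 and 4.63, 4.59, 3.05 and 1.32 CPM in Sox3U3-EGFP libraries 1 to 4. Only Lmx1aE1-EGFP library 1 fell into the range of the other group. Its log2 fold change was 0.87 (SE 0.33, adjusted p = 0.0696, edgeR), and DESeq2 on the same genes placed it under the threshold (0.90, adjusted p = 0.0385). LMO3 was low, with 0.61 to 1.45 CPM in the Lmx1aE1-EGFP and 1.19 to 2.83 CPM in the Sox3U3-EGFP libraries. Its log2 fold change was -0.89 (SE 0.43, adjusted p = 0.154, edgeR). The 95% intervals of 0.17 to 1.58 for LMO1 and -1.80 to 0.03 for LMO3 leave room for sizeable differences. Whether LMO1 and LMO3 differed from each other in their response was not tested.

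Ratios of counts between pairs of genes within a library do not depend on the scaling factor of that library, and gene length cancels when the groups are compared. They were taken for 5 pairs, with 0.5 count added to each gene, and tested with a two-sided exact permutation test adjusted over the 5 pairs. The log2 ratio of LMX1A to ISL1 ran from -0.31 to -0.02 in the Lmx1aE1-EGFP libraries and from -3.89 to -3.51 in the Sox3U3-EGFP libraries. This difference of 3.56 was the widest of the 5 and had an SD within groups of 0.12 and 0.16 (n = 4 each, adjusted p = 0.0357, exact permutation test). LMX1A and ISL1 each separated the groups, in opposite directions, so that their ratio had to separate them too. Its p therefore adds no support to the results of the single genes. The log2 ratio of LMX1A to LMX1B was 0.59 ± 0.24 in the Lmx1aE1-EGFP libraries and -0.07 ± 0.20 in the Sox3U3-EGFP libraries (SD, n = 4 each). The paralogues therefore changed by unequal amounts, with a difference of 0.66 and no overlap between the groups (adjusted p = 0.0357, exact permutation test). The log2 ratio of ISL1 to ISL2 overlapped between the groups, at 3.28 to 3.91 and 3.67 to 5.03, and the difference of -0.59 did not pass the test (adjusted p = 0.171, exact permutation test). It did pass after all libraries had been thinned to the smallest total (-0.79, adjusted p = 0.0286, exact permutation test), whereas without Sox3U3-EGFP library 4 the difference was -0.30.

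**Figure D3:**
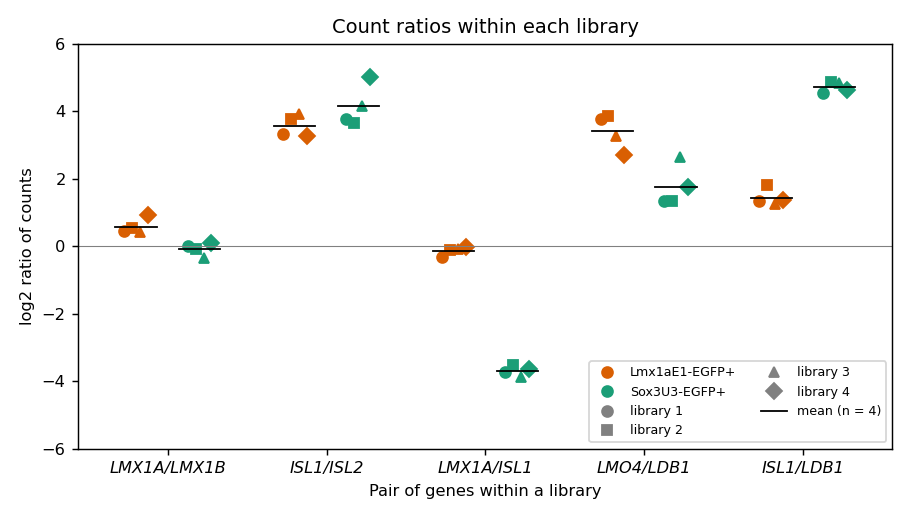
Log2 ratio of counts between pairs of genes within each library, with Lmx1aE1-EGFP libraries in orange, Sox3U3-EGFP libraries in green, marker shapes for the library number and a black line at each group's mean. The LMX1A to ISL1 ratio separates the groups by 3.56 log2 units, and the ISL1 to ISL2 ratio overlaps.

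The cofactors of LIM proteins differed in both directions, each by an absolute log2 fold change under 1.5. Of 7 cofactor genes, all tested, LDB1, LDB2, SSBP3 and SSBP4 (4 genes) were called on the otic side at an adjusted p under 0.05, and SSBP2 on the epibranchial side, beside 12.1% and 11.3% of all tested genes. Their median log2 fold change was 0.48. LDB1, the adaptor shared by LIM homeodomain and LMO proteins, had 7.46, 5.61, 7.68 and 6.32 CPM in Lmx1aE1-EGFP libraries 1 to 4 and 4.08, 3.19, 2.94 and 3.34 CPM in Sox3U3-EGFP libraries 1 to 4. The groups did not overlap. The log2 fold change of LDB1 was 0.99 (SE 0.25, adjusted p = 0.00756, edgeR), and it did not pass the test within the deeper or the shallower libraries alone (adjusted p = 0.0617 and 0.107). LDB2, its paralogue, differed by 0.70 on the log2 scale (SE 0.16), with 59.9 to 73.2 CPM against 32.1 to 58.6 CPM, and its call was lost in the shallower libraries alone (0.52, adjusted p = 0.0995). The LDB1-binding SSBP genes moved in different directions. SSBP3 was higher in Lmx1aE1-EGFP+ cells (105 ± 9.14 against 74.5 ± 6.11 CPM, SD, n = 4 each), though not detectably in the deeper libraries alone (log2 fold change 0.33, adjusted p = 0.18, edgeR), and so was SSBP4 (4.48 against 2.03 CPM). SSBP2 was lower there (93.3 ± 9.30 against 170 ± 34.9 CPM, SD, n = 4 each), with a log2 fold change of -0.86 (SE 0.13, adjusted p = 0.000215, edgeR). The call of SSBP4 was lost without Lmx1aE1-EGFP library 1 or 2 or Sox3U3-EGFP library 2 (adjusted p of 0.0699, 0.0514 and 0.0527). It was also lost within the deeper and the shallower libraries alone (adjusted p = 0.150 and 0.101, edgeR). RLIM and DEAF1, a transcription factor that binds LMO4, did not pass the test, at log2 fold changes of -0.08 and 0.28.

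**Figure D4:**
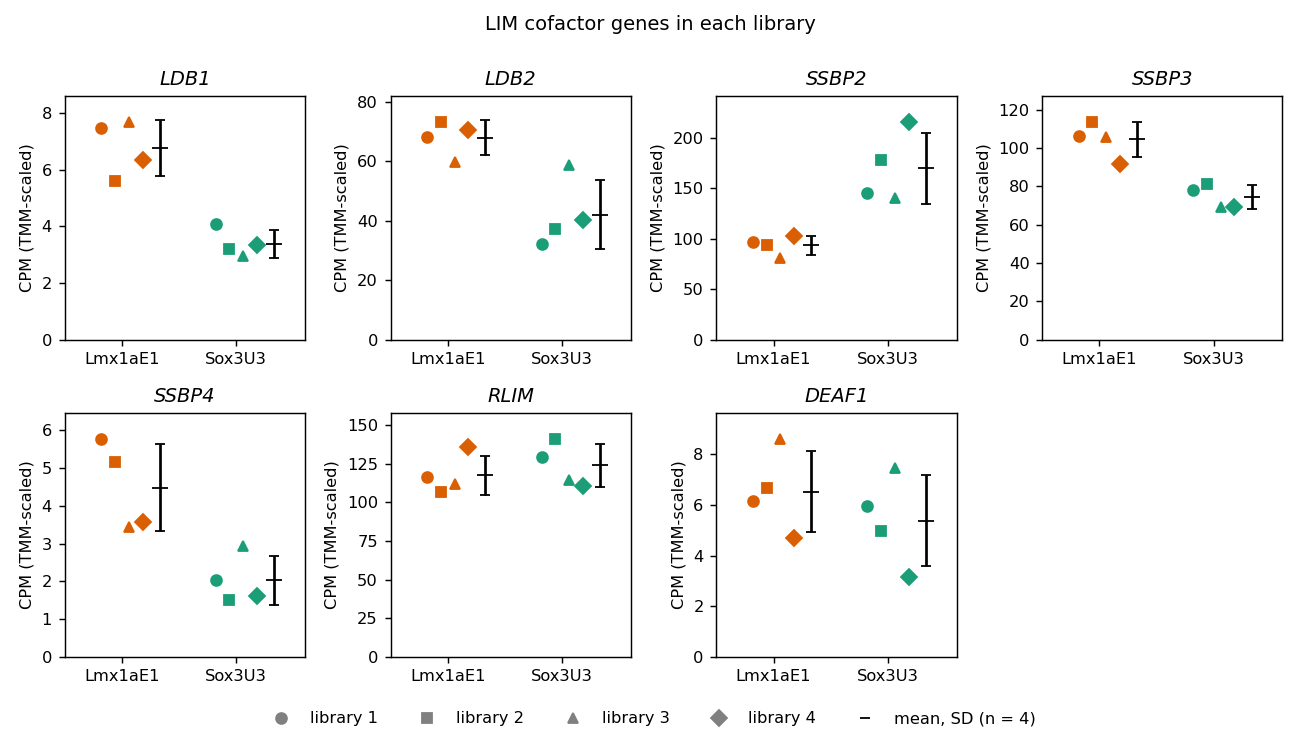
TMM-scaled CPM of the 7 cofactor genes in each library, 1 panel per gene, with the linear axis starting at 0. Marker shapes give the library number and black bars the mean and SD over 4 libraries. The groups do not overlap for LDB1, LDB2, SSBP2, SSBP3 and SSBP4, and they overlap for RLIM and DEAF1.

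Set against LDB1 in the same library, LMO4 and ISL1 kept their directions. The log2 ratio of LMO4 to LDB1 was 3.41 ± 0.54 in the Lmx1aE1-EGFP libraries and 1.77 ± 0.61 in the Sox3U3-EGFP libraries (SD, n = 4 each), a difference of 1.64 without overlap (adjusted p = 0.0357, exact permutation test). Its adjusted p was 0.0714 without any single library other than Sox3U3-EGFP library 3. The log2 ratio of ISL1 to LDB1 was 1.26 to 1.81 in the Lmx1aE1-EGFP libraries and 4.55 to 4.88 in the Sox3U3-EGFP libraries. The difference was -3.28 (adjusted p = 0.0357, exact permutation test). ISL1 and LDB1 each separated the groups, in opposite directions, so that the outcome for their ratio was fixed by the single genes.

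The other LIM homeodomain and LMO genes of the list were low or did not differ. Of 6 genes 4 were tested and none passed at an adjusted p under 0.05 with edgeR, beside 23.3% of all tested genes in either direction. However, 3 had an unadjusted p under 0.05, and DESeq2 called 0 at both thresholds. With limma-voom and sample quality weights LHX3 passed both (-1.57, adjusted p = 0.0470). LHX3, a motor neuron factor, had the widest fold change, at -1.75 (SE 0.67, adjusted p = 0.0694, edgeR), with 0.34 against 0.98 CPM. LHX6 and LHX8, both factors of ventral forebrain neurons, had log2 fold changes of -1.24 and -0.86 (adjusted p = 0.0993 and 0.0975, edgeR). LMO2, a cofactor of blood and endothelial cells, had 9.93 to 24.9 CPM in the Lmx1aE1-EGFP and 9.08 to 31.8 CPM in the Sox3U3-EGFP libraries, with a log2 fold change of 0.01. LHX1 and LHX4 were under the filter, at no more than 1.18 and 1.72 CPM in any library. At these few counts the groups did not overlap for LHX1 (mean of 0.85 CPM in the Lmx1aE1-EGFP against 0.31 CPM in the Sox3U3-EGFP libraries). Its unadjusted p was 0.0286 (exact permutation test), the smallest that 4 against 4 libraries allow.

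Genes for proteins that join LMO or ISL1 complexes mostly did not pass the test, which held for most tested genes. Of 6 tested bHLH and GATA partners, GATA3 was the gene that passed both thresholds. On the epibranchial side 2.47% of all tested genes did so. GATA3, a zinc-finger factor of the ear and of the epibranchial placodes, had 30.0 to 41.1 CPM in the Lmx1aE1-EGFP and 152 to 204 CPM in the Sox3U3-EGFP libraries, a log2 fold change of -2.32 (SE 0.13). TCF3 and TCF12, the E-proteins of LMO complexes, had log2 fold changes of 0.16 and 0.20, and neither passed the test. Of 7 neuronal partners of ISL1 that the table lists, 3 passed the filter and were tested. POU4F1, which acts with ISL1 in sensory neurons, was at most 0.41 CPM in any library. DRGX, a factor of sensory neurons, passed both thresholds with few counts (0.39 against 1.22 CPM, log2 fold change -1.62, SE 0.47, adjusted p = 0.0200, edgeR). Its call was lost without Lmx1aE1-EGFP library 1 or 3. DRGX passed the filter on low counts only through the Sox3U3-EGFP libraries (1.05 to 1.37 CPM, against 0.26 to 0.45 CPM in the Lmx1aE1-EGFP libraries). Its call is therefore a description and no support for a difference.

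Genes for LIM domain proteins of other classes, which mostly bind the cytoskeleton, served as a comparison. All 33 in the table were tested. At an adjusted p under 0.05, 5 were called on the otic side and 8 on the epibranchial side, beside 12.1% and 11.3% of all tested genes, and their median log2 fold change was -0.25. PDLIM1, an actin-associated protein of the PDZ and LIM domain class, passed both thresholds, with 24.5 to 35.7 CPM in the Lmx1aE1-EGFP and 131 to 190 CPM in the Sox3U3-EGFP libraries (log2 fold change -2.45, SE 0.15). FHL2, a LIM-only protein of muscle, lay just under 1.5 in the other direction (1.496, SE 0.32, adjusted p = 0.00365, edgeR), with 13.9 against 4.84 CPM. Of 5 epidermis markers, all tested, 4 were higher in Sox3U3-EGFP+ cells at an adjusted p under 0.05, beside 11.3% of all tested genes. ISL1, GATA3 and PDLIM1 had the same direction. GATA2 of the list did not pass (log2 fold change -0.48, adjusted p = 0.166, edgeR). The 5 markers summed to 476 to 708 CPM in the Lmx1aE1-EGFP and 2495 to 3188 CPM in the Sox3U3-EGFP libraries, most of it CLDN1. The part of epidermal cells in the differences of ISL1, GATA3 and PDLIM1 was not tested.

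The genes whose profile over the 8 libraries was most like that of a member were ranked by the root mean square difference between centred log2 CPM values, among 7645 named genes with a mean of at least 10 CPM. Nearest to LMX1A were SASH1, COLEC12 and MEX3B, at 0.09, 0.11 and 0.15 log2 units. Nearest to ISL1 were PRDM1, FGF18 and TFAP2E, at 0.15, 0.18 and 0.18 log2 units. For LMO4 the nearest genes, GNG4, FABP7 and ACBD7, were farther away, at 0.36, 0.44 and 0.49 log2 units. Among the genes ranked, none followed LMO4 as closely as these neighbours followed LMX1A and ISL1. This distance can grow with a gene's own spread within a group. The coefficients of variation were 34.1% and 37.5% for LMO4 and at most 14.7% for LMX1A and ISL1. The larger distance therefore does not show that LMO4 had a profile of its own.

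**Figure D5:**
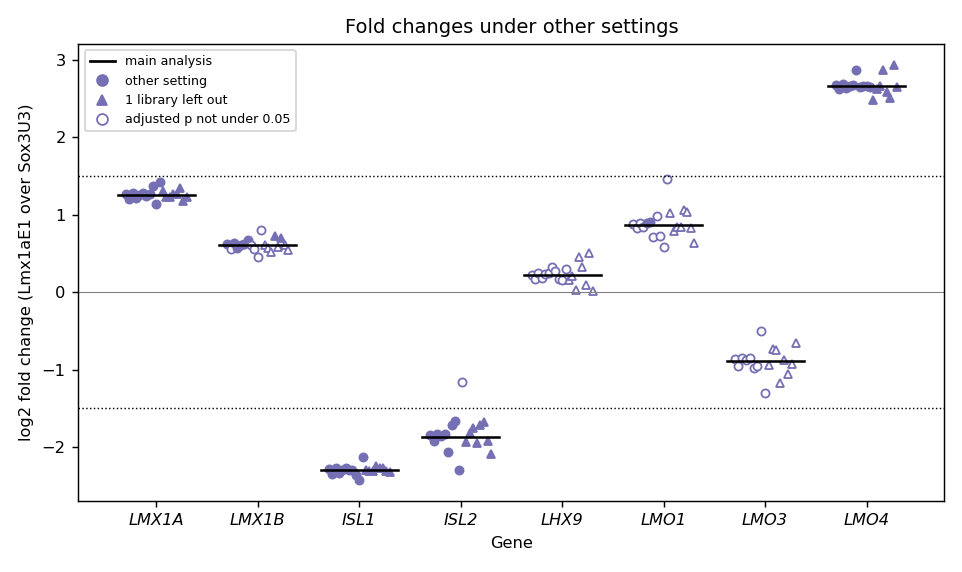
Log2 fold change of the 8 tested genes in the main analysis (black line), under other settings (circles) and with 1 library left out (triangles); open symbols did not reach an adjusted p under 0.05, and dotted lines mark -1.5 and 1.5. LMX1A, ISL1 and LMO4 are filled throughout, ISL2 has an open symbol at -1.16, and LMX1B is open under most settings.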

How the data were processed

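Bulk RNA libraries of sorted cells were sequenced as paired-end 75 bp reads. The authors aligned them to GalGal6 with STAR in the NF-core RNAseq pipeline (v2.0) and deposited raw counts per gene for the 8 libraries. The submitters' processing notes also name Trim Galore and featureCounts. The strand setting and the treatment of reads with several matches are not given in the sources used here, so that overlapping or antisense genes cannot be separated.

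Genes with about 10 counts in at least 4 libraries were kept by edgeR's filterByExpr (16861 of 24356), scaled by TMM and fitted by group alone in edgeR 4.0.16 under R 4.3.3 (quasi-likelihood F-test, robust option). Benjamini-Hochberg adjustment covered all tested genes. Standard errors were derived from the F statistic, log2 CPM used a prior count of 2, and exact permutation tests over 4 against 4 libraries cannot go below p = 0.0286. The thresholds were those of the study. The edgeR fit was also run on counts simulated with known fold changes and the dispersions of these data. That run does not address cell composition or whether libraries are independent.

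The members, lists and tests were chosen with earlier results of these data known. Named were the members, the cofactors, the other LIM homeodomain and LMO genes, list genes past both thresholds, GATA3, POU4F1 and the 3 genes most like LMX1A, ISL1 and LMO4. FHL2 and the marker genes were named after their values were seen. One listed gene is not reported here. Alternatives were RLE factors, library size only, other filters, DESeq2 1.42.0, limma-voom (limma 3.58.1), the replicate number as a block, thinning, depth classes, other fold thresholds and each library left out. The fold changes of the cofactors, FHL2, DRGX, LHX3, GATA3 and PDLIM1 under these alternatives, and the counts of cofactors and other LIM domain genes with no fold threshold, were added after seeing the data. No reference of the files' build was used, so that neither positions nor sequences are given.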

Additional observations from a re-analysis of the deposited data

How the results depend on the processing

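LMX1A, ISL1, LMO4 and SSBP2 kept their direction and an adjusted p under 0.05 in all 19 alternatives each, and no member changed direction. LMX1B was lost in 11 of its 19, among them library size only (adjusted p = 0.0723) and thinning (0.0842). Of the members past both thresholds, the number higher in Lmx1aE1-EGFP+ cells was 1, and it was 3 with no fold threshold and 2 with a log2 threshold of 1. The number higher in Sox3U3-EGFP+ cells was 2, and 1 with at least 10 counts required in every library, where ISL2 was not tested, or within the shallower libraries. With no fold threshold, 4 and 1 cofactors and 5 and 8 other LIM domain genes were called, in place of 0 and 0, and 0 and 1. FHL2 passed the log2 threshold of 1.5 with RLE factors, with DESeq2 and with the replicate block, so that 1 other LIM domain gene in place of 0 was higher in Lmx1aE1-EGFP+ cells, and this number was 0 to 1 with libraries left out. The number of other LIM homeodomain and LMO genes and of neuronal partner genes higher in Sox3U3-EGFP+ cells was between 0 and 1 with libraries left out. LHX3 was the gene called without Lmx1aE1-EGFP library 2. With 1, 10 and 1 counts in Lmx1aE1-EGFP libraries 1, 3 and 4, it then passed the filter only through Sox3U3-EGFP libraries. That call is therefore a description and no support for a difference. LHX3 was also called by limma-voom (-1.57, adjusted p = 0.0470). The difference of the LMO4 to LDB1 ratio was 1.49 to 1.94 and its adjusted p reached 0.0714 with a library left out. That of the ISL1 to ISL2 ratio was -0.79 after thinning and -0.75 to -0.30 with a library left out (adjusted p up to 0.343, exact permutation test). Same-numbered libraries showed no sign of deviating together (correlations from -0.23 to 0.05). Each such pair joined a deeper with a shallower library, so that this check cannot exclude a pairing. With the replicate block the number of neuronal partner genes was 0, LMX1B was at 0.61 (adjusted p = 0.0679) and 3 in place of 5 other LIM domain genes were higher in Lmx1aE1-EGFP+ cells with no fold threshold. Low counts limit ISL2, LMO3, DRGX and LHX3, and LHX1, LHX4, LHX5 and POU4F1 were under the filter and had no edgeR test.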

Other observations

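In 42 sets of 4 libraries (members, cofactors and ratios by group), none held a library far enough from the others to pass Dixon's 95% criterion, which about 2.1 sets would do by chance. This includes LMO4 in the Lmx1aE1-EGFP libraries (coefficient of variation 34.1%, where counting error would give 3.68%) and ISL2 in the Sox3U3-EGFP libraries (41.6% and 10.6%).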
